A study of Mus musculus with 24 samples.

Results

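The MHC class II genes are 7 genes of antigen presentation, H2-Aa, H2-Ab1, H2-Eb1, H2-DMa, H2-DMb1, Cd74 and Ciita, found by their symbols in the platform annotation. They were read by 11 of the 25697 probes on the arrays and make up 7 of 8945 genes tested. RNA came from gastrocnemius, a calf muscle, of 24 male mice, 1 Illumina BeadChip array each. Of these, 20 mice carried the mdx mutation, which removes the muscle protein dystrophin. The mdx mice received sActRIIB-Fc with voluntary wheel running, PBS with running, sActRIIB-Fc without running, or PBS without running, 5 mice in each group. Injections were intraperitoneal and weekly, with sActRIIB-Fc at 5 mg/kg. The titles give 7 weeks for the treatment in all 4 mdx groups, with or without running. The agent sActRIIB-Fc, made of the outer part of the activin IIB receptor and an antibody tail, binds myostatin and activins and keeps them from muscle. The remaining 4 mice were untreated wild-type mice of strain C57Bl/10ScSnJ. No injection is named for them, so genotype and PBS injection cannot be told apart. The labels give the mdx animals no background strain, and give every mouse an age of 6 to 7 weeks without saying at which point of the study.

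MHC class II molecules show peptides from the endosomes of a cell to CD4+ T cells, and macrophages, dendritic cells and B cells are the cells best known for making them. An alpha and a beta chain assemble around the invariant chain Cd74, which fills the groove until endosomal proteases degrade it, and the H2-DM pair then exchanges the last invariant chain fragment for a peptide. Ciita, a co-activator that interferon gamma induces, joins the factors bound at class II promoters and switches the genes on. C57BL/10 mice make the I-A molecule but no surface I-E, since their H2-Ea gene is defective, while their H2-Eb1 gene is intact.

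Class II promoters are known for an X box, which the RFX factors bind, and a Y box, which NF-Y binds, at a fixed spacing. Promoter windows of 300 bases, from 250 before to 50 after the annotated start, were taken from RefSeq on build GRCm38.p6 and were at hand for 4 of the 7 genes: H2-Aa, H2-Eb1, H2-DMb1 and H2-DMa. The letters GNAAC, from the X box, followed after 20 to 35 bases by GATTGG, from the Y box, were searched on both strands, with no overlap between the 2 parts. These letters were chosen with the windows in view. The pair stood on the gene's own strand in 3 of the 4 genes, whose windows are given here with the letters in capitals, since all 3 transcripts are measured in what follows.
H2-Aa: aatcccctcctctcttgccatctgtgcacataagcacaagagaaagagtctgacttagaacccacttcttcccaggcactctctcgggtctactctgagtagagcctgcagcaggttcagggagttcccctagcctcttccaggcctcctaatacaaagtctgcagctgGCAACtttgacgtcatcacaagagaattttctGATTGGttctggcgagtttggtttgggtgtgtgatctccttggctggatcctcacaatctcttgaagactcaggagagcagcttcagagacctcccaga
H2-Eb1: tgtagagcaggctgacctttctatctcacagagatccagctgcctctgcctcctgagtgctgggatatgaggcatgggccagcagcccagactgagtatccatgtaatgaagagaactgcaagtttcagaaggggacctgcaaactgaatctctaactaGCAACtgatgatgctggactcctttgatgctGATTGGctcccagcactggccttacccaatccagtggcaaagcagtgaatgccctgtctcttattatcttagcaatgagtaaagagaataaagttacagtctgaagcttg
H2-DMb1: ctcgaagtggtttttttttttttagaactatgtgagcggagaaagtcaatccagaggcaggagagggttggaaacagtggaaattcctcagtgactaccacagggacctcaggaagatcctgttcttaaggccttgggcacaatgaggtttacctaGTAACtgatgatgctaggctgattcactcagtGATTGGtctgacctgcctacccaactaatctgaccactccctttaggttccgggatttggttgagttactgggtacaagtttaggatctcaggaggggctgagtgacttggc
These windows are chr17:34287774-34288073 on the minus strand for H2-Aa, chr17:34305617-34305916 on the plus strand for H2-Eb1 and chr17:34152941-34153240 on the plus strand for H2-DMb1. The first part began 81 bases before the start of H2-Aa, 91 before that of H2-Eb1 and 94 before that of H2-DMb1, with 26 or 27 bases between the parts. Neither of the 2 windows listed for H2-DMa held the pair. Of all 32851 windows in the table, 303 held it on either strand, which is 0.922%, while GATTGG by itself stood in 16.1% and GNAAC by itself in 84.8%.

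Between 10938 and 11971 probes were detected per mdx array, against 10404 to 10634 per wild-type array, at a detection p under 0.05. The median raw signal lay between 76.0 and 99.0 on mdx arrays and between 72.3 and 90.6 on wild-type arrays. All 8 fast muscle genes on the marker list were detected on every array. The dystrophin gene was not among the genes tested here, so it gives no check of the genotype labels. Transcripts of hepatocytes, the main liver cells, varied widely between arrays of the same group. Their list mean ran between 4.69 and 10.92 log2 units on mdx arrays and between 4.78 and 12.33 on wild-type arrays. The 4 highest arrays were sActRIIB-Fc+running replicates 1 and 2, PBS+running replicate 2 and wild-type replicate 2. Replicates 3 and 4 of the sActRIIB-Fc+running group also stood apart, with a leukocyte list mean of 10.72 and 8.39 beside 9.57 for the median array of that group.

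In mdx muscle given PBS, all 7 class II transcripts were called higher than in wild-type muscle, as were 19.3% of all genes tested. The increase ran from 3.76-fold for H2-DMa to 6.95-fold for H2-Ab1 among the 6 genes that could be measured in both groups. Levels are log2 normalized signal, which serves to compare 1 gene between samples and not genes with each other. Changes were tested with limma over all 8945 genes, and adjusted p-values are Benjamini-Hochberg values over all of them. They weigh each difference against the spread between arrays within the groups. Called means an adjusted p under 0.05.

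The classical chains come first. H2-Aa, the alpha chain of I-A, measured 9.76, 9.35, 9.66, 10.38 and 9.13 log2 units in the 5 mdx PBS muscles, against 6.86, 7.18, 8.08 and 7.26 in the 4 wild-type muscles. Wild-type replicate 3 was the highest of its group, and still more than 1 log2 unit below the lowest mdx PBS array. The change was 2.31 ± 0.25 log2 units (SE), or 4.97-fold (limma adjusted p = 1.88e-07). H2-Ab1, the beta chain that pairs with it, measured 12.04, 11.66, 11.92, 12.01 and 11.28 in mdx PBS muscles, against 9.07, 8.57, 9.47 and 8.84 in wild-type muscles. The 2 groups were far apart, with a change of 2.80 ± 0.22 log2 units, 6.95-fold (limma adjusted p = 1.61e-09). Its 4 probes gave changes of 2.63 to 2.80. H2-Eb1, the beta chain of I-E, measured 11.21, 10.73, 11.26, 11.05 and 10.66 in mdx PBS muscles, against 8.17, 8.04, 8.67 and 8.23 in wild-type muscles. The rise was 2.71 ± 0.18 log2 units, 6.54-fold (limma adjusted p = 6.09e-11). Its usual partner H2-Ea was detected on 0 of the 24 arrays.

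The genes that load and guard the groove rose as well. H2-DMa, the alpha chain of the H2-DM exchange factor, measured 8.94, 8.47, 8.79, 9.23 and 8.58 in mdx PBS muscles, against 6.83, 6.41, 7.23 and 7.11 in wild-type muscles. H2-DMb1, a beta chain of the same factor, measured 8.24, 7.64, 7.94, 8.04 and 7.63 in mdx PBS muscles, against 6.09, 5.63, 6.27 and 5.92 in wild-type muscles. H2-DMa rose by 1.91 ± 0.20 log2 units and H2-DMb1 by 1.92 ± 0.19, with no overlap between the groups (limma adjusted p = 9.13e-08 and 5.3e-08). In the deposited matrix, which has no background correction, these changes were 1.52 and 1.32, and the chains were not tested against each other. Cd74, the invariant chain, measured 12.31, 11.85, 12.03, 12.23 and 11.92 in mdx PBS muscles, against 9.33, 8.85, 9.85 and 9.57 in wild-type muscles. Its change of 2.66 ± 0.16 log2 units, 6.34-fold, had the lowest adjusted p of the 7 genes, 7.03e-12 by limma. Its second probe gave 2.69.

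Ciita, the co-activator of the other 6, was detected on all 5 mdx PBS arrays and on none of the 4 wild-type arrays. It measured 5.77, 5.63, 6.03, 5.89 and 6.08 log2 units in mdx PBS muscles, against 4.53, 4.51, 4.65 and 4.52 in wild-type muscles. Since the wild-type values lay below detection, the difference is given as a bound, computed per array against the lowest signal detected there. Ciita was at least 1.27-fold higher in mdx PBS muscle. The limma adjusted p of 2.17e-07 belongs to the fitted difference, which uses the wild-type values below detection. The bound itself was not tested. The bound was at least 1.21-fold in the PBS+running group, 1.16-fold with sActRIIB-Fc and 1.14-fold with sActRIIB-Fc+running, where 4 of 5 arrays detected it.

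**Figure D1:**
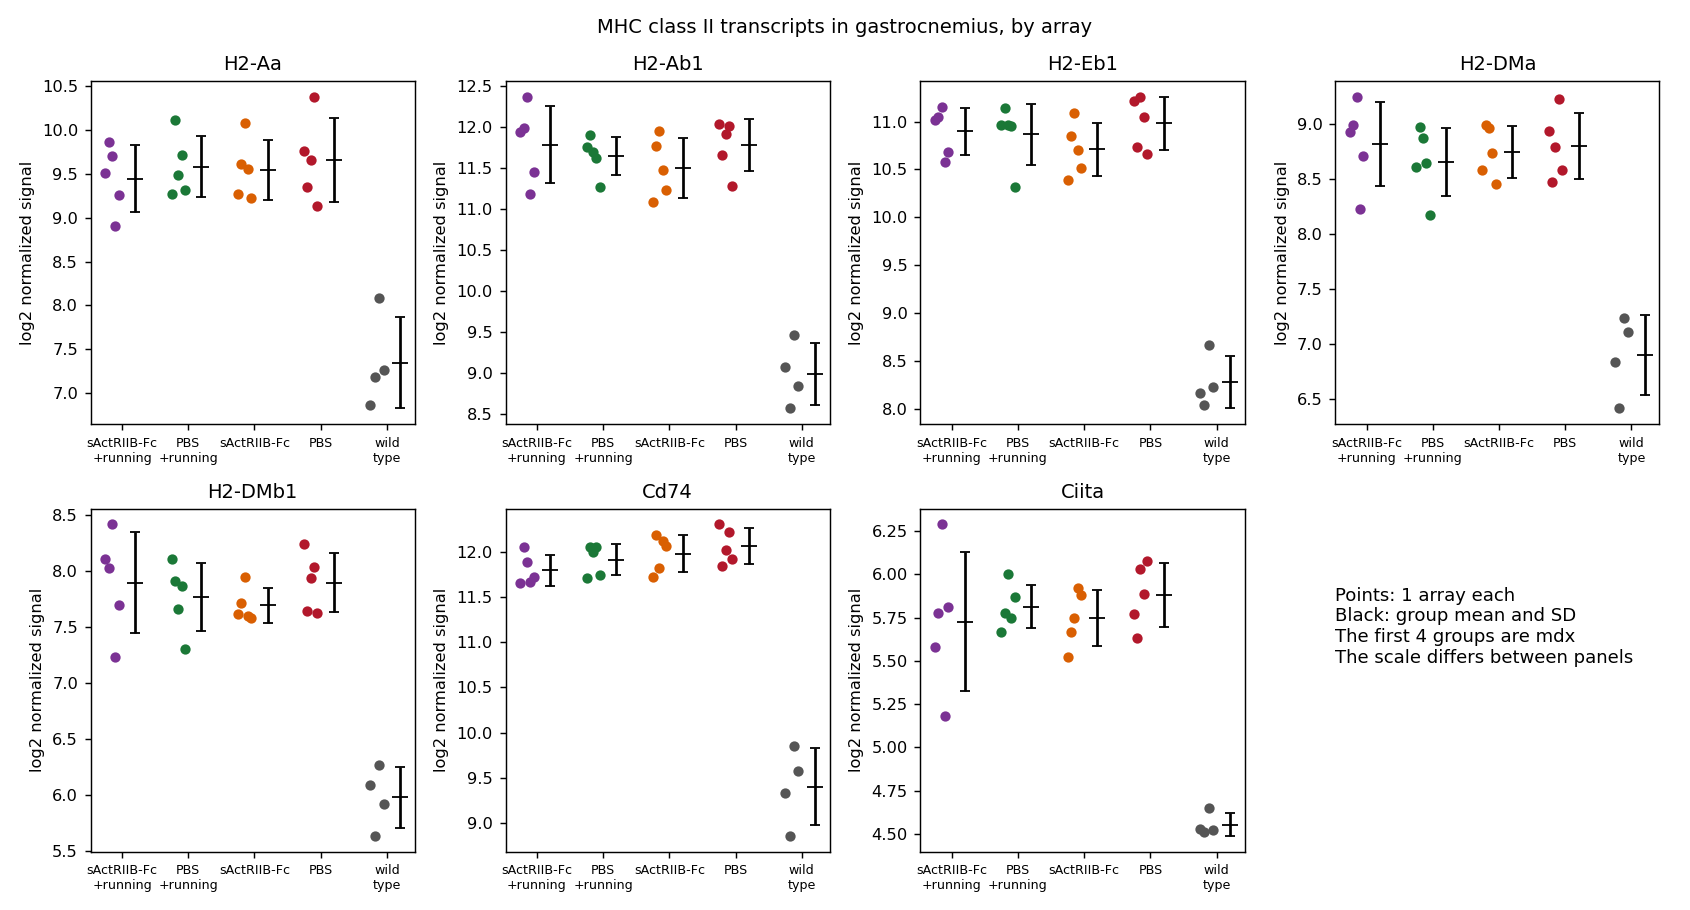
Levels of the 7 class II transcripts on each array, in log2 normalized signal, with 1 panel per gene and its own vertical scale. Points are single arrays, black marks are the group mean and SD, and the 20 mdx arrays lie above the 4 wild-type arrays in every panel. In the Ciita panel the 4 wild-type points and that of sActRIIB-Fc+running replicate 4 are below detection.

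The other mdx groups were as far from wild type, with the same 4 wild-type arrays on the other side of each comparison. All 7 genes were called higher in each of the 4 mdx groups. Among all genes tested, 19.5% were called higher with sActRIIB-Fc+running, 17.8% with PBS+running, 19.8% with sActRIIB-Fc and 19.3% with PBS, where 18.5% were called lower. The median change of the 7 genes was 2.10 log2 units with sActRIIB-Fc+running, 2.24 with PBS+running, 2.20 with sActRIIB-Fc and 2.31 with PBS, and stayed at these values with Ciita set to its bound. The median of all genes lay between -0.06 and -0.04 in these comparisons. For each of the 7 genes, every mdx array lay above every wild-type array. For Ciita this ranks values of which the 4 in wild type lay below detection. The lowest mdx value of Ciita, 5.18 on sActRIIB-Fc+running replicate 4, was not detected either. Such a separation was found in 13.4% of all genes for sActRIIB-Fc+running, 15.1% for PBS+running, 17.4% for sActRIIB-Fc and 17.2% for PBS. The 7 genes were also called in each mdx group with the hepatocyte level or the raw median signal in the model, without the 4 hepatocyte-high arrays, and without sActRIIB-Fc+running replicates 3 and 4.

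**Figure D2:**
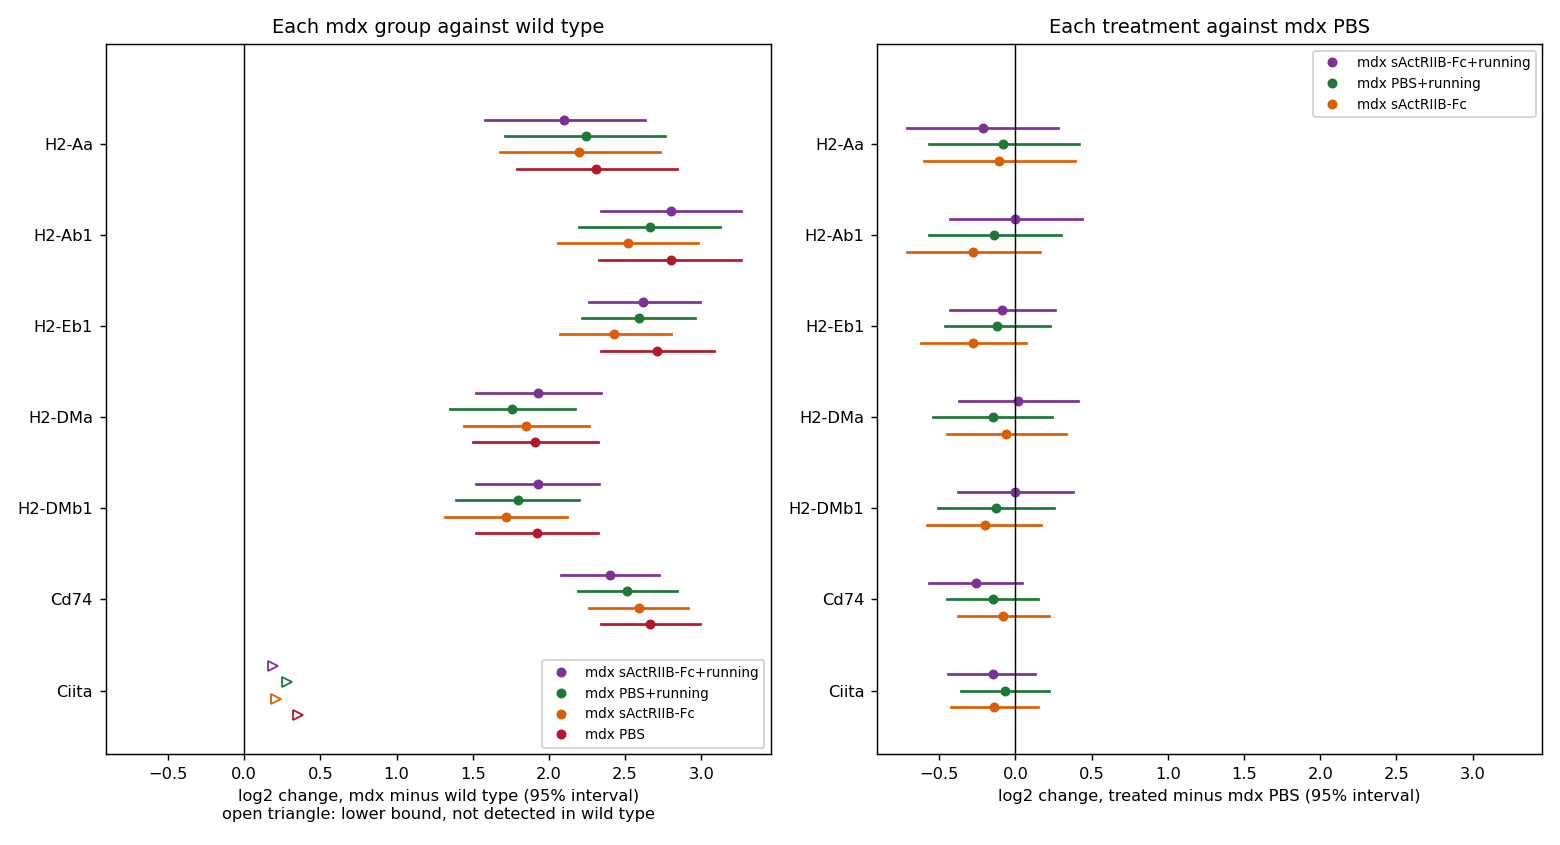
Log2 change of each class II gene with its 95% interval, on the left for each mdx group minus wild type and on the right for each treated mdx group minus mdx PBS, on the same horizontal scale. For the 6 genes that wild-type arrays detect, intervals on the left all lie above 0, with 1.32 as their lowest end, while Ciita is drawn there as its lower bounds (open triangles). Intervals on the right all include 0.

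Within mdx muscle, neither running nor sActRIIB-Fc gave a called change in any class II gene. This question was put in 8 comparisons: 5 between pairs of groups, the average effect of running, the average effect of sActRIIB-Fc, and the interaction of both. In each, 0 of 7 genes were called by limma, and 0 of 7 had an unadjusted p under 0.05. Among all genes, 0.0112% (1 gene) were called for PBS+running against PBS and for the average effect of running, and 0% in the other 6 comparisons. These comparisons thus called few genes of any kind. Unadjusted, the genes with a p under 0.05 ran from 282 for the average effect of sActRIIB-Fc to 741 for sActRIIB-Fc+running against sActRIIB-Fc. The lower count is under the share of 0.05 of all genes that chance alone would give, and the higher count is over it.

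Cd74 came closest. It measured 11.66, 12.06, 11.89, 11.67 and 11.73 log2 units with sActRIIB-Fc+running, beside 12.31, 11.85, 12.03, 12.23 and 11.92 with PBS. The groups overlapped, and the difference of -0.26 ± 0.15 had a limma adjusted p of 0.867, and 0.084 before adjustment. The other Cd74 probe gave -0.24. H2-Eb1 measured 10.39, 10.85, 11.09, 10.70 and 10.51 with sActRIIB-Fc, beside 11.21, 10.73, 11.26, 11.05 and 10.66 with PBS. These too overlapped, with a difference of -0.28 ± 0.17 and a limma adjusted p of 0.999, or 0.11 before adjustment.

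The 95% intervals show how large a change the arrays could have missed. Over the 7 genes they ran between -0.71 and 0.44 log2 units for sActRIIB-Fc+running minus PBS, between -0.57 and 0.42 for PBS+running minus PBS, and between -0.71 and 0.39 for sActRIIB-Fc minus PBS. For sActRIIB-Fc+running they ran between -0.63 and 0.58 against PBS+running, and between -0.60 and 0.72 against sActRIIB-Fc. Over these 5 comparisons, changes below 0.611-fold or above 1.65-fold lay outside the interval of every class II gene. The averaged effects were bounded more tightly, at 0.737-fold to 1.30-fold for running and 0.722-fold to 1.26-fold for sActRIIB-Fc. The interaction was bounded loosely, at 0.603-fold to 2.06-fold.

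In the order of group means, wild type stood last for all 7 genes. The first place went to the PBS or the sActRIIB-Fc+running group, and PBS+running and sActRIIB-Fc were neighbours for all 7. This pair was compared after the other results were seen, and limma called 0 of the 7 genes, with 0 at an unadjusted p under 0.05. Of all genes, 0.0112% (1 gene) were called and 377 had an unadjusted p under 0.05. The differences, sActRIIB-Fc minus PBS+running, ran from -0.16 for H2-Eb1 to 0.09 for H2-DMa, with 95% intervals between -0.58 and 0.48 log2 units. No other difference between neighbouring mdx groups passed the test. H2-Aa averaged 9.45 ± 0.38 log2 units with sActRIIB-Fc+running, 9.58 ± 0.35 with PBS+running, 9.55 ± 0.34 with sActRIIB-Fc, 9.66 ± 0.48 with PBS and 7.34 ± 0.52 in wild type (SD, n = 5 per mdx group and 4 wild type). H2-Ab1 averaged 11.79 ± 0.47 with sActRIIB-Fc+running, 11.64 ± 0.24 with PBS+running, 11.50 ± 0.36 with sActRIIB-Fc, 11.78 ± 0.32 with PBS and 8.98 ± 0.38 in wild type. For both I-A chains the arrays of the 4 mdx groups overlapped. H2-Eb1 averaged 10.90 ± 0.25 with sActRIIB-Fc+running, 10.86 ± 0.32 with PBS+running, 10.71 ± 0.28 with sActRIIB-Fc, 10.98 ± 0.27 with PBS and 8.27 ± 0.27 in wild type. H2-DMa averaged 8.82 ± 0.38 with sActRIIB-Fc+running, 8.65 ± 0.31 with PBS+running, 8.74 ± 0.23 with sActRIIB-Fc, 8.80 ± 0.30 with PBS and 6.89 ± 0.37 in wild type. H2-DMb1 averaged 7.90 ± 0.45 with sActRIIB-Fc+running, 7.77 ± 0.31 with PBS+running, 7.70 ± 0.15 with sActRIIB-Fc, 7.90 ± 0.26 with PBS and 5.98 ± 0.27 in wild type. The mdx means of each H2-DM chain lay within 0.20 log2 units of each other, and the arrays overlapped. Cd74 averaged 11.80 ± 0.17 with sActRIIB-Fc+running, 11.92 ± 0.17 with PBS+running, 11.99 ± 0.20 with sActRIIB-Fc, 12.07 ± 0.20 with PBS and 9.40 ± 0.43 in wild type. Ciita averaged 5.73 ± 0.40 with sActRIIB-Fc+running, 5.81 ± 0.13 with PBS+running, 5.75 ± 0.16 with sActRIIB-Fc, 5.88 ± 0.18 with PBS and an undetected 4.55 ± 0.07 in wild type.

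The class II genes did not vary independently of each other. After the group means were removed, their levels over the 20 mdx arrays correlated with r between 0.27 and 0.91 in 21 pairs, with a median of 0.59. The points share the normalization and the array, so these values are a description. H2-Ab1 and H2-Eb1 were the closest pair, at 0.91. H2-DMa followed the mean of the other 6 with r = 0.93 and H2-Ab1 with 0.92, while Cd74 followed it with 0.57 and Ciita with 0.40. The SD within mdx groups was 0.39 log2 units for H2-Aa and 0.36 for H2-Ab1, and 0.19 for Cd74.

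On some mdx arrays all 7 genes lay on 1 side of the group mean. They lay above it on sActRIIB-Fc+running replicates 2 and 3 and PBS replicate 4, and below it on sActRIIB-Fc+running replicate 4, sActRIIB-Fc replicate 1 and PBS replicate 2. Replicates 3 and 4 of sActRIIB-Fc+running lay farthest out. Their 7-gene means were 9.87 and 9.00 log2 units, in a group with a mean of 9.48 ± 0.34 (SD, n = 5). H2-Ab1, for example, measured 11.94, 11.99, 12.37, 11.18 and 11.45 in that group, and Ciita 5.58, 5.78, 6.29, 5.18 and 5.81. The same 2 arrays were the highest and lowest of their group in the macrophage list, at 9.83 and 8.04, and in the leukocyte list. Their deviations were 0.38 and -0.49 for the class II mean, and 1.12 and -1.21 for the leukocyte mean. Wild-type replicate 3 was the highest of its group for all 7 class II genes, with a mean of 7.74 beside 7.02 to 7.35 on the other 3. It was also highest in the leukocyte list, at 7.16, and in the macrophage list, at 6.94.

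**Figure D3:**
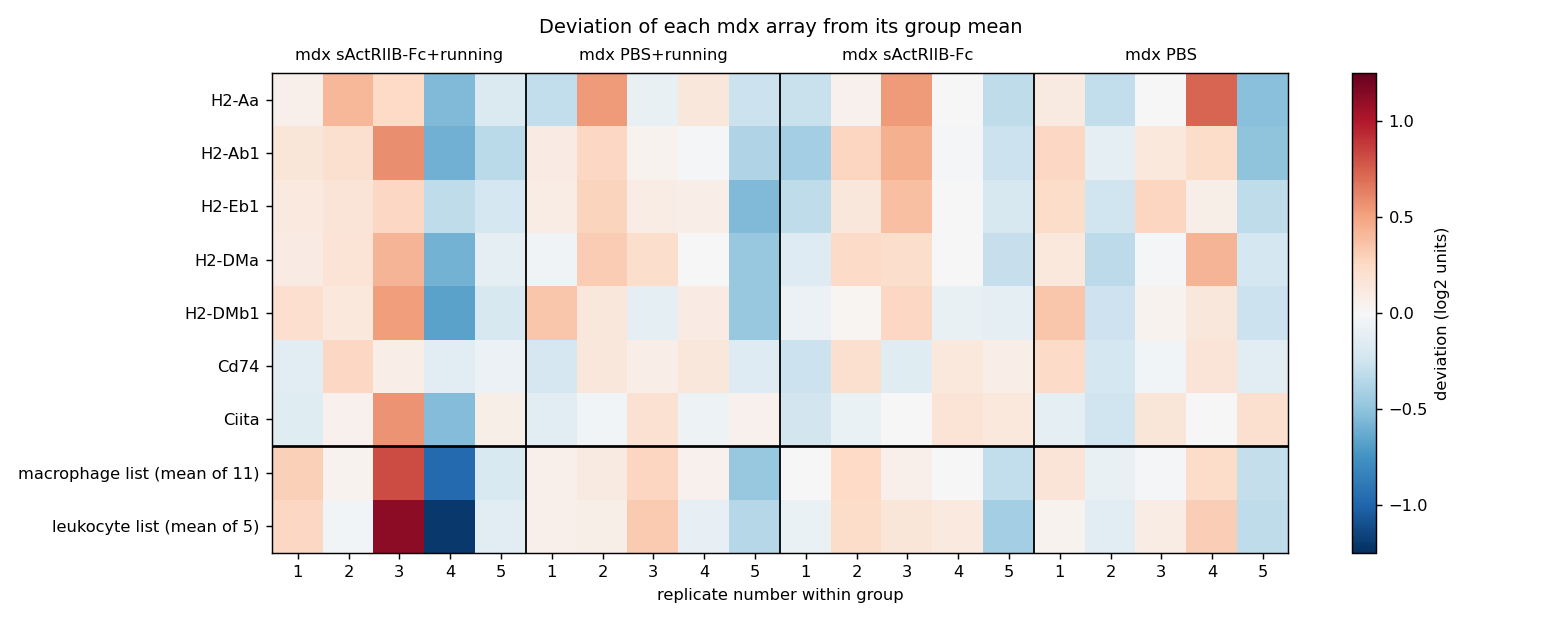
Deviation of each of the 20 mdx arrays from its group mean, in log2 units, for the 7 class II genes and for the means of the macrophage and leukocyte lists. Red is above and blue below the group mean, and sActRIIB-Fc+running replicates 3 and 4 carry the strongest colours, at 1.12 and -1.21 in the leukocyte row.

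Of the class II chains outside the 7, none was called. H2-Ob, a chain of the H2-DO regulator of H2-DM, averaged 5.48 log2 units in mdx PBS and 5.63 in wild-type muscle (limma adjusted p = 0.271), with a sign that turned when arrays were scaled to equal medians. H2-Oa, its partner, and H2-DMb2, a second H2-DM beta chain, were detected on 0 arrays, and H2-Eb2, an I-E-like beta chain, on 1. A probe that detects nothing says little about the transcript. The probes for Ptprc, the pan-leukocyte gene CD45, were also silent on all 24 arrays while 5 other leukocyte genes rose. The promoter windows of H2-Ob, H2-Oa and H2-Eb2 hold the same pair of letters as those printed above, and that of H2-DMb2 does not.

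The factors around Ciita did not move in 1 direction. Of 7 factors of the class II promoter, the RFX, NF-Y and CREB proteins, 3 were tested and 0 were called by limma in any mdx group against wild type, with 1 of 12 tests at an unadjusted p under 0.05. Rfxap averaged 8.50 log2 units in mdx PBS and 8.72 in wild type, Nfyb 8.45 and 8.56, and Nfyc 11.34 and 11.28. Rfx5, Rfxank, Nfya and Creb1 were detected on 0 arrays. On the path that leads from interferon gamma to Ciita, 6 of 9 genes were tested, and in mdx PBS 2 were called higher and 2 lower. Irf1, a transcription factor that acts on the Ciita promoter, rose by 0.69 ± 0.14 log2 units (limma adjusted p = 0.000286), and Ifngr1, a receptor chain, by 0.39 ± 0.12. Jak2, the kinase bound to the other receptor chain, fell to 8.78 in mdx PBS, against 9.75 in wild type (limma adjusted p = 5.78e-08). Ifngr2, that other chain, was -0.34 ± 0.09 and was no longer called when arrays were scaled to equal medians (adjusted p = 0.0701 by limma). Ifng itself was detected on 0 arrays and Socs1, an inhibitor of the path, on 1.

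Proteases that degrade the invariant chain and antigens rose with the class II genes. Of 8 genes of endosomal processing, 6 were called higher and 0 lower in mdx PBS, and the counts were the same in the other 3 mdx groups. Lgmn, an asparagine endopeptidase, measured 11.48 log2 units on average in mdx PBS against 9.13 in wild type, a 5.10-fold rise (limma adjusted p = 5.95e-08). Ctss, the cathepsin best known for cutting the invariant chain, was detected on no wild-type array and was at least 2.25-fold higher in mdx PBS. Its limma adjusted p of 2.68e-05 belongs to the fitted difference and not to this bound. Ctsh, an aminopeptidase, rose by 1.73 ± 0.31 log2 units, and Ifi30, a thiol reductase that unfolds antigens, by 1.60 ± 0.21. Ctsd was not called, at -0.26, and Ctsl was detected on 0 of the mdx PBS and 0 of the wild-type arrays. For removal of class II from the surface, the ubiquitin ligase gene Marchf1 was called higher in all 4 mdx groups and undetected in wild type (limma adjusted p = 0.00218 for mdx PBS). Its means of 5.52 in mdx PBS and 5.41 with PBS+running did not exceed the wild-type detection floor of 5.53, so no fold can be given there. With PBS+running, 2 of 5 arrays detected Marchf1. Its bound was at least 1.02-fold with sActRIIB-Fc and 1.1-fold with sActRIIB-Fc+running. Marchf8 averaged 6.03 in mdx PBS and 6.28 in wild type and was not called there. Marchf8 was called lower with sActRIIB-Fc+running, at -0.35, but not with arrays scaled to equal medians (limma adjusted p = 0.514). Of the costimulation genes, Cd86 rose by 1.32 ± 0.20 log2 units (limma adjusted p = 9.77e-06), Cd40 and Cd274 were not called, and Cd80 and Pdcd1lg2 were detected on 0 arrays. Cd86 was detected on 2 of 4 wild-type arrays, and its change in the deposited matrix was 0.75. With arrays scaled to equal medians, Cd40 was called higher in mdx PBS, at 0.52 (limma adjusted p = 0.00285). It was then also called with PBS+running and sActRIIB-Fc+running, but not with sActRIIB-Fc.

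**Figure D4:**
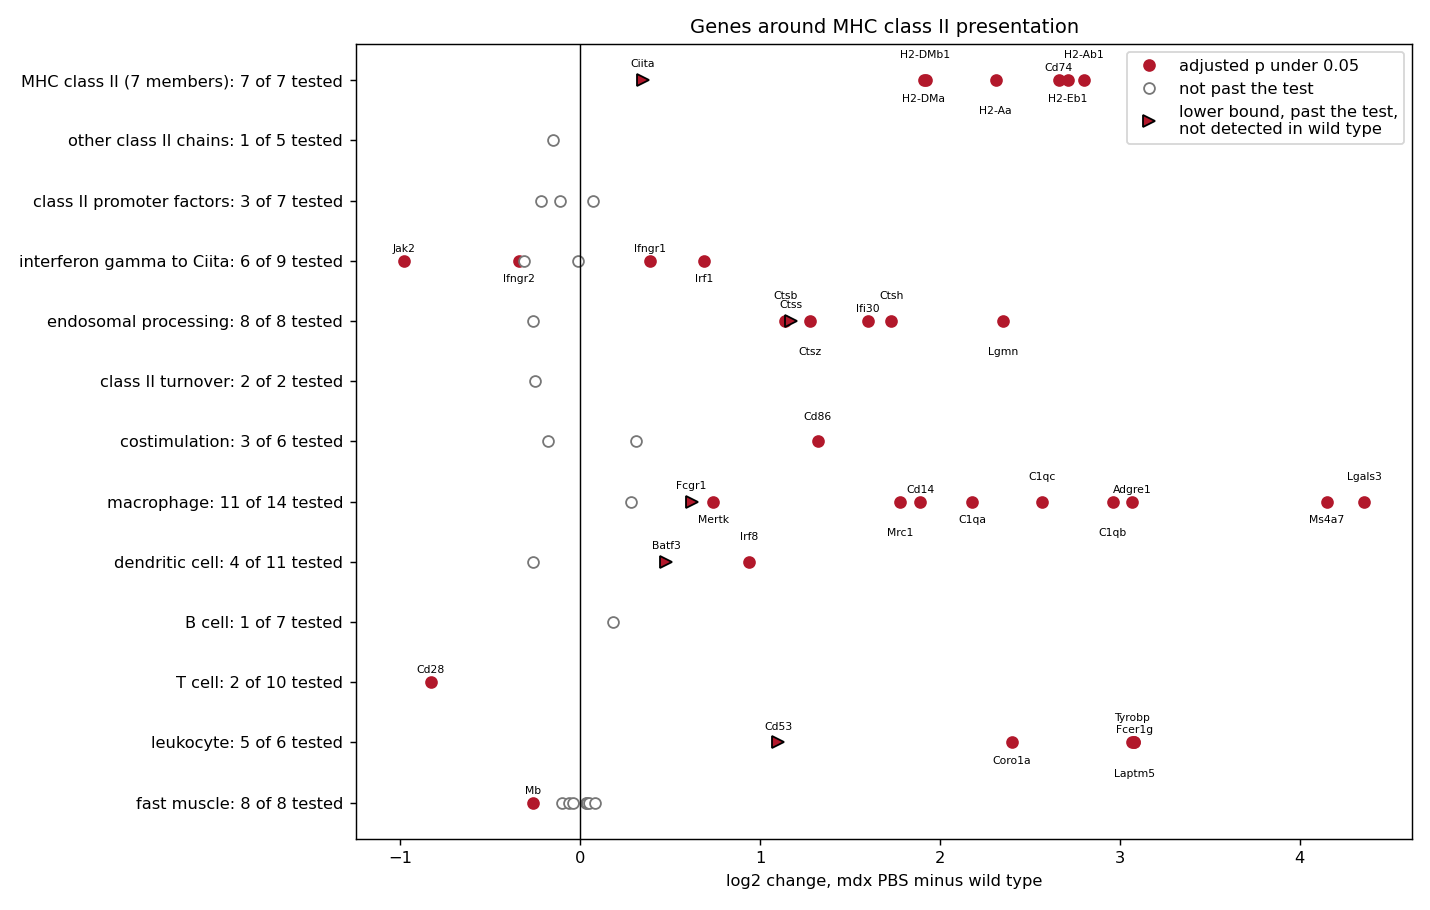
Log2 change in mdx PBS minus wild type for the tested genes of each list around class II presentation, 1 point per gene. Filled points have an adjusted p under 0.05; triangles are lower bounds for called genes that no wild-type array detects. In the class II row 6 genes lie between 1.91 and 2.80 and Ciita at its bound of 0.35, and Ctsl, Marchf1, Irf4 and Icos, which have no bound in mdx PBS, are not drawn.

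Most macrophage markers and general leukocyte genes moved with the class II genes. Of 14 macrophage markers 11 were tested, and 10 were called higher in mdx PBS, 0 lower. Their mean level lay between 8.04 and 9.83 log2 units with sActRIIB-Fc+running, 8.26 and 9.00 with PBS+running, 8.52 and 9.07 with sActRIIB-Fc, 8.62 and 9.14 with PBS, and 6.31 and 6.94 in wild type. Itgam was detected on 0 arrays, and Cd68 and Csf1r were not analysed here. The largest changes were those of Lgals3, or galectin-3, with 4.36 ± 0.35 log2 units, Ms4a7 with 4.15 ± 0.40, Adgre1, a surface receptor of mature macrophages, with 3.07 ± 0.27, and C1qb, a complement chain, with 2.96 ± 0.34. Ms4a7 and Adgre1 were each detected on 1 of 4 wild-type arrays. In the deposited matrix the changes were 4.20 for Lgals3, 3.09 for Ms4a7, 2.06 for Adgre1 and 2.74 for C1qb, and C1qc, another complement chain, stood above Adgre1 at 2.31. Of 6 general leukocyte genes 5 were tested and all 5 called higher, with Fcer1g, a signalling chain of Fc receptors, and Laptm5, a lysosomal membrane protein of blood cells, at 3.08 log2 units each. The leukocyte mean lay between 8.39 and 10.72 with sActRIIB-Fc+running, 9.01 and 9.71 with PBS+running, 9.12 and 9.77 with sActRIIB-Fc, 9.26 and 9.89 with PBS, and 6.76 and 7.16 in wild type. In whole muscle, more cells of a type and more RNA per cell cannot be told apart. The part of these cells in the class II result was not tested.

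Evidence for the other presenting cells was thinner. Of 11 dendritic cell markers 7 were not detected on enough arrays to be tested, among them Flt3, Itgax and Xcr1 on 0 arrays. In mdx PBS, Batf3, a dendritic cell transcription factor undetected in wild type, was at least 1.40-fold higher. Its limma adjusted p of 4.77e-06 belongs to the fitted difference and not to this bound. Irf8, which macrophages also use, rose by 0.94 ± 0.19 log2 units, with 2 of 4 wild-type arrays detecting it. In the deposited matrix the change of Irf8 was 0.51. Siglech, a marker of plasmacytoid dendritic cells, went the other way. It averaged 5.28 in mdx PBS and 5.54 in wild type (limma adjusted p = 0.0524), and was called lower with sActRIIB-Fc+running, at -0.52, and with sActRIIB-Fc, at -0.50. It was detected on 2 of 5 mdx PBS arrays and 2 of 4 wild-type arrays. With sActRIIB-Fc 0 of 5 arrays detected it and with sActRIIB-Fc+running 1 of 5, so these calls rest mostly on values below detection. Irf4 was not called and was detected on 0 of the wild-type arrays. The mean of the 4 tested markers lay between 5.53 and 5.82 on mdx PBS arrays and between 5.04 and 5.33 on wild-type arrays. Of 7 B cell markers only Cd79b, part of the B cell receptor, was tested, and it averaged 5.57 in mdx PBS and 5.38 in wild type (limma adjusted p = 0.447). The B cell genes Cd79a and Pax5 were detected on 0 arrays. Among T cell markers, Cd3e, Cd4 and Cd8a were detected on 0 arrays, and Cd28, a T cell receptor for Cd86, fell by 0.83 log2 units in mdx PBS (limma adjusted p = 6.83e-05). Cd28 averaged 5.32 in mdx PBS, near the detection limit, with 4 of 5 arrays detecting it. In the deposited matrix its change was -0.43. The 8 fast muscle genes lay between 14.52 and 14.61 on average in mdx PBS and between 14.53 and 14.63 in wild type, with only Mb called, at -0.26.

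Within mdx groups, 0 of 464 limma tests on the 58 genes of these lists were called, and 15 had an unadjusted p under 0.05. The genes whose levels were most like the class II mean were sought among the other 8938 genes over the 20 mdx arrays, after group means were removed. Ms4a7 came first with r = 0.92, followed by Adgre1 and Clic1 with 0.90, St8sia4 and Gpr34 with 0.89, and Ctsh, Rps14 and H3c13 with 0.88. With all 24 arrays and group differences kept, r was 0.98 for Ms4a7 and Adgre1, but 0.23 for Rps14, a ribosomal protein gene, and 0.39 for H3c13, a histone gene. The list means gave r = 0.85 for macrophage markers, 0.83 for endosomal processing, 0.82 for leukocyte genes, 0.79 for the 1 tested B cell gene, Cd79b, and 0.74 for dendritic cell markers. They gave 0.54 for class II turnover, 0.46 for costimulation, 0.09 for the interferon gamma path and for T cell markers, -0.24 for fast muscle genes and -0.79 for the 3 promoter factors. Arrays share hybridization and normalization, so these too are descriptions over 20 arrays.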

How the data were processed

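Expression was measured in gastrocnemius RNA on 24 single-colour Illumina arrays, in 5 groups taken from the sample titles. The deposited table held intensity, the mean bead signal of each probe without normalization, and beside it the detection p-value of each probe, per the file headers. A deposited matrix held log2 values. They equalled the log2 of the quantile-normalized signal to within 0.005, and were used as an alternative. The software that made these files is not given in the sources used here.

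Background was corrected by normexp (offset 16, control levels derived from the detection p-values), and arrays were quantile-normalized and log2-transformed in limma 3.58.1 under R 4.3.3. Probes detected at p under 0.05 on at least 4 arrays were kept, 12623 of 25697. Genes were named from the platform annotation with symbols updated by gene identifier (23978 probes with 1 symbol, 0 with several, 1719 with none here). Each of 8945 genes was represented by its brightest probe on average. A linear model with 5 group means gave 12 two-sided comparisons, and 1 added later, with empirical Bayes moderation, tested on simulated data. The number of arrays limits the precision, and every column of the table was used. The class II genes and the gene lists were chosen with earlier results of these data known.

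Named are all 7 class II genes, up to 4 called genes per list in order of change, the members of lists of 5 or fewer, and the 8 most alike genes. Others, such as Ctsl, Ptprc and Cd3e, were chosen after their values were seen. Replicate numbers come from the titles. Deviations of same-numbered arrays correlated with r between 0.35 and 0.50 for all 5 pairs of mdx PBS+running with mdx sActRIIB-Fc+running, and between 0.17 and 0.50 for the 4 pairs of mdx sActRIIB-Fc+running with wild type. For the other pairs of groups at least 1 correlation was under 0.1. Alternatives were the deposited matrix, equal-median scaling, offset 50, no detection filter, each probe by itself, only the compared groups, each array left out, the replicate number as a block, and hepatocyte transcripts as a covariate or without the 4 highest arrays.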

Additional observations from a re-analysis of the deposited data

Results flagged for a closer look

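The 7 genes and their mean were examined for single arrays far from the rest of their group, in 40 groups of 4 or 5 arrays, where chance marks about 1 in 20. In 2 of them an array was marked. H2-Eb1 measured 10.32 log2 units in mdx PBS+running replicate 5, with the nearest array of that group at 10.95 and the highest at 11.14. Ciita measured 4.65 in wild-type replicate 3, with the others between 4.51 and 4.53, all of them below detection.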

How the results depend on the processing

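Against wild type, all 7 class II genes were called higher in each of the 4 mdx groups under every alternative run and without any single array. The largest adjusted p among these was 0.0013, for Ciita. Its fitted difference is set by wild-type values below detection, so only its bounds are given. In the deposited matrix H2-DMb1 changed by 1.32 log2 units in mdx PBS and 1.33 with sActRIIB-Fc+running, against 1.92 and 1.93 with background correction. Taken as linear folds, no other change of the 6 genes detected in wild type moved by over 1.5 times. With arrays scaled to equal medians, the median change of all genes moved to 0.07 in mdx PBS against -0.05 with quantile normalization. Of called genes, 71.9% were then higher, against 51.1%. These shares were 75.8% against 51.3% for PBS+running, 71.8% against 50.9% for sActRIIB-Fc and 69.6% against 49.7% for sActRIIB-Fc+running.

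With the replicate number as a block, 7 class II genes were called against wild type in each group and 0 within mdx. The block called 1 gene, outside these 7, for the average effect of sActRIIB-Fc, and changed no call on the class II genes.

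Counts over all genes within mdx stayed near 0. For the average effect of running, 1 gene was called. It was 2 with the deposited matrix, an offset of 50 or no filter, 0 with equal medians or without the 4 hepatocyte-high arrays, and 3 with raw median signal in the model or without sActRIIB-Fc+running replicates 3 and 4. The last 2 alternatives were chosen after seeing the data. For the average effect of sActRIIB-Fc, 1 gene was called with either the hepatocyte level or raw median signal in the model. For PBS+running against PBS, 0 were called from these 2 groups by themselves. With single arrays left out, the counts lay between 1 and 2 for running, 0 and 1 for sActRIIB-Fc, and 0 and 4 for sActRIIB-Fc+running against PBS, with 2 without sActRIIB-Fc+running replicate 3 and 4 without replicate 4.

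Some uncalled differences near 0 changed sign. Without the hepatocyte-high arrays H2-DMa was -0.07 for sActRIIB-Fc+running minus PBS, and H2-Ab1 was -0.02 for running. The second Cd74 probe gave 0.04 for the interaction. With single arrays left out, H2-DMa lay between -0.09 and 0.17 for sActRIIB-Fc+running minus PBS, between -0.14 and 0.05 for sActRIIB-Fc minus PBS, and between -0.00 and 0.13 for the average effect of sActRIIB-Fc. The Cd74 interaction lay between -0.10 and 0.02, H2-Ab1 for running between -0.00 and 0.15, and H2-Aa between -0.24 and 0.00 for sActRIIB-Fc+running minus PBS+running. The cause of these shifts was not tested.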

Other observations

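The 4 mdx arrays numbered 5 all lay below their group mean in the 7-gene class II mean, by between 0.14 and 0.32 log2 units on that scale. Raw median signal fell along the replicate numbers as well. It lay between 76.0 and 81.3 on the mdx arrays numbered 5, and between 95.9 and 99.0 on those numbered 1. Over the 20 mdx arrays, with group means removed, the class II mean correlated with the log2 raw median signal of the array at r = 0.34 and with the hepatocyte mean at r = 0.30. The spread of the class II mean in the sActRIIB-Fc+running group was 0.34 log2 units (SD, n = 5), beside 0.84 for the leukocyte mean and 0.66 for the macrophage mean. In wild-type muscle these were 0.30, 0.19 and 0.26 (SD, n = 4). Rps14 and H3c13, which varied with the class II genes inside mdx groups, differed by 0.03 ± 0.11 and 0.12 ± 0.15 log2 units between mdx PBS and wild type (limma adjusted p = 0.85 and 0.55).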
